A study of Mus musculus with 6 samples.

Results

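The replication-dependent histone genes were examined on arrays of mouse CD8+ T cells with and without a targeted Dot1l gene. Members were all probe sets whose annotated symbols include a clustered histone gene, under the older names beginning Hist1h to Hist4h or the current names H1f, H2ac, H2bc, H3c and H4c followed by a digit. The rule found 68 of the 41345 probe sets of the table, and these carry 69 distinct symbols, 66 of which match the rule themselves. Of the 68 probe sets, 30 name 1 symbol and 38 name several, up to 13, because the coding sequences of these genes are nearly identical. A probe set with several symbols is given below as shared by them, and its signal cannot be divided among them. In 3 pairs both probe sets hold identical values in all 6 arrays, so 65 distinct probe sets remain and each pair is described once. The rule also takes in H1f7, H1f8 and H1f10, linker histone genes that are not coupled to DNA replication.

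The study used 3 arrays of CD8+ T cells labelled Dot1l knockout and 3 labelled wild type, all from C57BL/6 mice. Floxed Dot1l mice had been bred to mice with Cre recombinase driven by the Cd4 promoter, which acts in developing T cells of both the CD4 and CD8 lineages. Cells came from spleen and peripheral lymph nodes, were isolated fresh with a CD8 T cell kit and had no treatment. The sources give neither the age of the mice nor whether wild type animals carried Cre or a floxed allele. Nothing in the labels says whether the replicates of 1 genotype are different mice, and a p-value here therefore covers the array-to-array spread alone. All levels below are RMA values on the log2 scale, each mean is given with its SD (n = 3 arrays a group), and differences are knockout-labelled minus wild type with their standard error (SE).

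Replication-dependent histone genes supply the H2A, H2B, H3 and H4 proteins of the nucleosome core and the linker histone H1 that binds nucleosomes from outside. Most lie in large gene clusters, lack introns and give messages that end in a stem-loop in place of a poly(A) tail, and those messages accumulate while DNA is copied in S phase and are degraded afterwards. DOT1L is the methyltransferase of a lysine in the globular core of histone H3, so the H3 genes encode its substrate. Labelling with the whole-transcript kit does not depend on a poly(A) tail alone, which allows stem-loop messages to be read.

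All 7 measured CD8 T cell markers, among them Cd3e and Cd8a, were bright in both groups, with means of 9.58 to 11.74 in knockout-labelled arrays, against 9.65 to 11.83 in wild type arrays. Dot1l read 7.31, 7.26 and 7.33 in knockout-labelled arrays, against 7.46, 6.96 and 7.18 in wild type arrays (difference 0.10, SE 0.14, limma with Benjamini-Hochberg adjusted p = 0.78), and since the deleted part is not given here, this probe set does not check the labels. Of all probe sets, 1408 (3.41%) were called higher and 278 (0.672%) lower in knockout-labelled arrays at an adjusted p under 0.05, and after another quantile normalization 911 of 1292 calls were higher. In the same arrays 2 of 12 B and plasma cell markers were higher and 1 lower (summed log2 level 65.9 to 67.9 in knockout-labelled arrays, against 62.5 to 66.4 in wild type arrays). Cd22 (1.29, limma adjusted p = 0.0135) and Ms4a1 (1.13, adjusted p = 0.0142) were higher, and Ighm was lower (-0.60, adjusted p = 0.0276). Of the 12, 8 lay above the background guide given next, Cd22 and Ighm among them, while Ms4a1 and the B cell factor gene Pax5 lay below it. Of the other marker lists, 1 of 13 myeloid and dendritic cell markers was higher (46.1 to 47.7 against 45.6 to 48.6), 1 of 7 CD4 T cell markers was lower (32.6 to 33.1 against 33.8 to 34.0) and 0 of 7 erythroid and megakaryocyte markers were called (24.7 to 26.5 against 25.4 to 27.3). The median level of unnamed probe sets was also higher in knockout-labelled arrays (3.55, 3.63 and 3.61) than in wild type arrays (3.49, 3.34 and 3.45). The part of these shifts in the histone values was not tested for the cell markers. With the unnamed median as a covariate 0 histone probe sets were called, but only 2 were called in the whole table, against 1686 without it. That median was higher in every knockout-labelled array than in any wild type array, so this fit cannot separate it from genotype.

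Few single histone probe sets passed the test. By limma with Benjamini-Hochberg adjustment over all 41345 probe sets, 1 of the 68 (1.47%) was called higher, beside 3.41% of all probe sets, and 0 were called lower, beside 0.672%. At an unadjusted p under 0.05 the count was 13 of 68 (19.1%), beside 17.5% of all probe sets. The groups did not overlap, with all knockout-labelled arrays above all wild type arrays, in 10 of the 68 (14.7%), beside 14.7% of the table, and in the opposite order in 2 (2.94%), beside 8.95%. The median difference of the 65 distinct probe sets was 0.01, against 0.004 over the table, with single differences from -0.62 to 0.996. Rescaling moved both medians alike, to -0.04 for the histone probe sets and -0.05 for the table after median centring, and to -0.02 and -0.04 after another quantile normalization. These counts pool bright probe sets with the 38 at or below background that are described next. For 56 of the 65 the 95% interval of the difference stayed inside a 2-fold change in either direction.

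As a guide to background, the 95th percentile of 1405 probe sets for olfactory and vomeronasal receptors, genes with no known role in T cells, was 3.83. By their mean over all 6 arrays, 27 of the 65 distinct histone probe sets lay above that guide and 38 lay at or below it. Of these 27, 5 separated the groups with knockout-labelled arrays higher, beside 23.2% of all probe sets above the guide, and 2 with them lower, beside 10.4%. Among the 27 the difference was above 0 in 17 (63.0%), beside 58.1% of the 19921 probe sets above the guide, and their median was 0.19, beside 0.06. It was above 0 in 12 of the 16 with several symbols (median 0.22) and in 5 of the 11 with 1 symbol (median -0.08). Probe sets with several symbols read many of the same genes, so they are not independent. The 27 comprised 9 H2B, 7 H2A, 6 H4 and 3 H3 probe sets, 1 of H1f2, and 1 shared by H1 and H2B genes. The 38 dim probe sets had group means of 1.64 to 3.73 in knockout-labelled arrays, against 1.67 to 3.88 in wild type arrays.

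**Figure D1:**
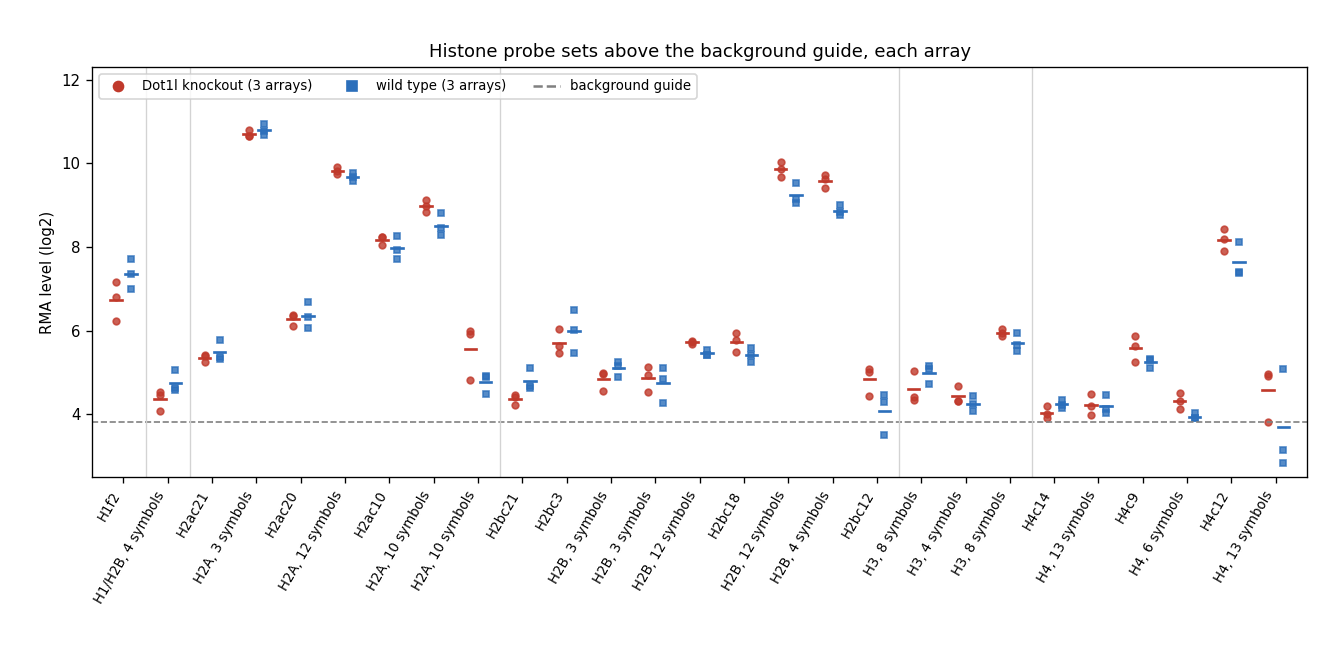
RMA log2 level of the 27 distinct histone probe sets above the background guide, with each array as a point, knockout-labelled arrays (red circles) left of wild type arrays (blue squares), short bars at group means and the guide of 3.83 as a dashed line. Probe sets are grouped by histone class, and those shared by several genes are named by class and number of symbols. The groups overlap for most, and the clearest gap is that of the H2B probe set with 4 symbols.

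Histone H2B pairs with H2A in the nucleosome, and the probe set called higher belonged to this class. It is shared by H2bc7, H2bc11, H2bc13 and H2bc15, genes of the large Hist1 cluster. It read 9.71, 9.41 and 9.63 in knockout-labelled arrays, against 8.85, 9.01 and 8.76 in wild type arrays. All 3 knockout-labelled arrays lay above all 3 wild type arrays, with means of 9.58 ± 0.16 in knockout-labelled arrays, against 8.87 ± 0.12 in wild type arrays, a 1.64-fold difference (log2 0.71, SE 0.12, 95% interval 0.41 to 1.01, adjusted p = 0.031 by limma). With any 1 array left out the difference was 0.64 to 0.80. Over the whole table, leaving out 1 array cut the 1686 calls to between 377 and 1531. The call of this H2B probe set also rests on the full set of arrays. Without wild type replicate 2 it held (adjusted p = 0.0383), but without any other array it did not: the adjusted p was 0.0962, 0.0685 and 0.122 without knockout replicate 1, 2 or 3, and 0.0718 and 0.0932 without wild type replicate 1 or 3. After median centring the adjusted p was 0.0518.

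To show what separates the 4 genes that this probe set cannot, stretches of their promoters are given from RefSeq (build GRCm38.p6), 80 bases each, from base 105 to base 26 before the annotated start, 5′ to 3′ on the gene's strand. Capitals mark the CCAAT box on either strand and the string ATTTGNAT, the core of the octamer element of H2B promoters with any base at the place of N. The stretches lie at chr13:23574233-23574312 (minus strand, H2bc7), chr13:22043093-22043172 (plus strand, H2bc11), chr13:21716209-21716288 (minus strand, H2bc13) and chr13:21753971-21754050 (plus strand, H2bc15).
H2bc7: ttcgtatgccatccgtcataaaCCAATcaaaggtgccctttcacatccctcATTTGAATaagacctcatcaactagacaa
H2bc11: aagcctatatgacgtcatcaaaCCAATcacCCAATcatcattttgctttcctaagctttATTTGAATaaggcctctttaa
H2bc13: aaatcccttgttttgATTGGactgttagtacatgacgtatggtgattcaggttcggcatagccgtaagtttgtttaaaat
H2bc15: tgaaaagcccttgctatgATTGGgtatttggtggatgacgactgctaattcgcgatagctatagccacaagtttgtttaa

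The CCAAT box was found in all 4 windows and the string ATTTGNAT in those of H2bc7 and H2bc11. Promoter windows of 300 bases, 250 before and 50 after the annotated start, were on hand for 64 of the 69 symbols. On either strand, 15 of 15 H2B and 17 of 17 H2A genes held CCAAT, beside 37.4% of all 32851 windows. The string ATTTGNAT was in 13 of 15 H2B and 11 of 17 H2A windows and in 0 H1, H3 or H4 windows, beside 4.36% of all. A match describes these letters only.

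Other H2B probe sets read differently, also for the same genes. The other 2 probe sets with the same 4 symbols lay below the guide and differed by 0.20 and -0.10 (adjusted p = 0.621 and 0.811). A probe set shared by 12 symbols, 1 of them annotated as H4bc24 with an H2B name as its synonym, and with the 4 above included, read 10.04, 9.67 and 9.86 in knockout-labelled arrays, against 9.04, 9.54 and 9.14 in wild type arrays. Its knockout-labelled arrays all lay above its wild type arrays, the nearest pair being knockout replicate 2 and wild type replicate 2, and the difference of 0.61 (SE 0.17, 95% interval 0.22 to 1.01, limma adjusted p = 0.11) did not pass. With 1 array left out, it passed only without wild type replicate 2 (0.76, adjusted p = 0.048). Without any other array the adjusted p was 0.177 to 0.274, and after median centring it was 0.162. Another over the same 12 symbols, listed as an identical pair, gave 5.72 ± 0.03 in knockout-labelled arrays, against 5.46 ± 0.07 in wild type arrays (0.26, SE 0.09, adjusted p = 0.211).

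H2B genes with a probe set of their own differed in both directions. None passed, beside 3.41% called higher and 0.672% called lower over all probe sets. H2bc12 read 5.09, 5.02 and 4.45 in knockout-labelled arrays, against 3.498, 4.46 and 4.31 in wild type arrays (difference 0.76, SE 0.29, adjusted p = 0.24). Knockout replicate 3 lay below wild type replicate 2, so the groups overlapped. H2bc9 was dim, at 2.89 ± 0.21 in knockout-labelled arrays, against 2.35 ± 0.06 in wild type arrays (0.54, SE 0.13, adjusted p = 0.0817). H2bc21 of the Hist2 cluster read 4.23, 4.42 and 4.47 in knockout-labelled arrays, against 4.63, 5.10 and 4.68 in wild type arrays. Its groups did not overlap and ran the other way (difference -0.43, SE 0.15, adjusted p = 0.211). H2bc18, also of the Hist2 cluster, differed by 0.31 (adjusted p = 0.349) and H2bc3 by -0.29 (adjusted p = 0.666). The human counterpart of H2bc21 is known to give polyadenylated messages as well, which persist outside S phase. Of the 15 distinct H2B probe sets 9 had a difference above 0 and 6 below, with a median of 0.13. Of the remaining single genes, the testis histone gene H2bc1, H2bc14 and H2bc22 were below the guide, with differences of -0.03, -0.21 and 0.09.

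Histone H2A probe sets gave 0 calls among 16, with 8 differences above 0 and 8 below. Over all probe sets 3.41% were called higher and 0.672% lower, so 0 calls among 16 do not set the H2A genes apart. H2ac18, H2ac19 and H2ac20 of the Hist2 cluster share a probe set that read 10.80, 10.67 and 10.66 in knockout-labelled arrays, against 10.76, 10.93 and 10.69 in wild type arrays. The groups overlapped, and the interval around the difference of -0.08 (SE 0.11, adjusted p = 0.753) was -0.34 to 0.17. A probe set shared by 12 H2A genes of the Hist1 cluster read 9.92, 9.81 and 9.75 in knockout-labelled arrays, against 9.67, 9.77 and 9.58 in wild type arrays (0.15, SE 0.10, 95% interval -0.10 to 0.40, adjusted p = 0.524). The intervals of these 2 bright probe sets stayed inside a 2-fold change. Those of 2 other probe sets, given next, over 10 of the same 12 Hist1 genes were 0.09 to 0.85 and 0.04 to 1.58. The 4 probe sets together therefore set no common bound. Of the probe sets shared by 10 H2A genes, 1 read 9.12, 8.84 and 8.99 in knockout-labelled arrays, against 8.45, 8.81 and 8.28 in wild type arrays (0.47, SE 0.16, adjusted p = 0.19). Its groups did not overlap, and wild type replicate 2 lay just under knockout replicate 2. Another over the same 10 genes read 5.92, 4.81 and 5.99 in knockout-labelled arrays, against 4.89, 4.92 and 4.49 in wild type arrays (0.81, SE 0.32, adjusted p = 0.263). There knockout replicate 2 fell inside the wild type range. The remaining probe sets over these 10 genes lay below the guide, with differences of -0.05, 0.01, 0.19, -0.04 and 0.03.

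Among H2A genes with their own probe set, H2ac10 read 8.18 ± 0.12 in knockout-labelled arrays, against 7.97 ± 0.27 in wild type arrays (0.21, SE 0.16, adjusted p = 0.555). H2ac20 differed by -0.08 and H2ac21 by -0.13 (adjusted p = 0.868 and 0.714), and the other probe set of H2ac21 was below the guide. H2ac1, a testis histone gene, read 2.79, 3.04 and 3.23 in knockout-labelled arrays, against 2.98, 3.90 and 3.47 in wild type arrays (-0.43, SE 0.24, adjusted p = 0.426). H2ac12 and H2ac15 lay below the median of the receptor probe sets, 2.28, in both groups, with differences of -0.03 and 0.06.

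**Figure D2:**
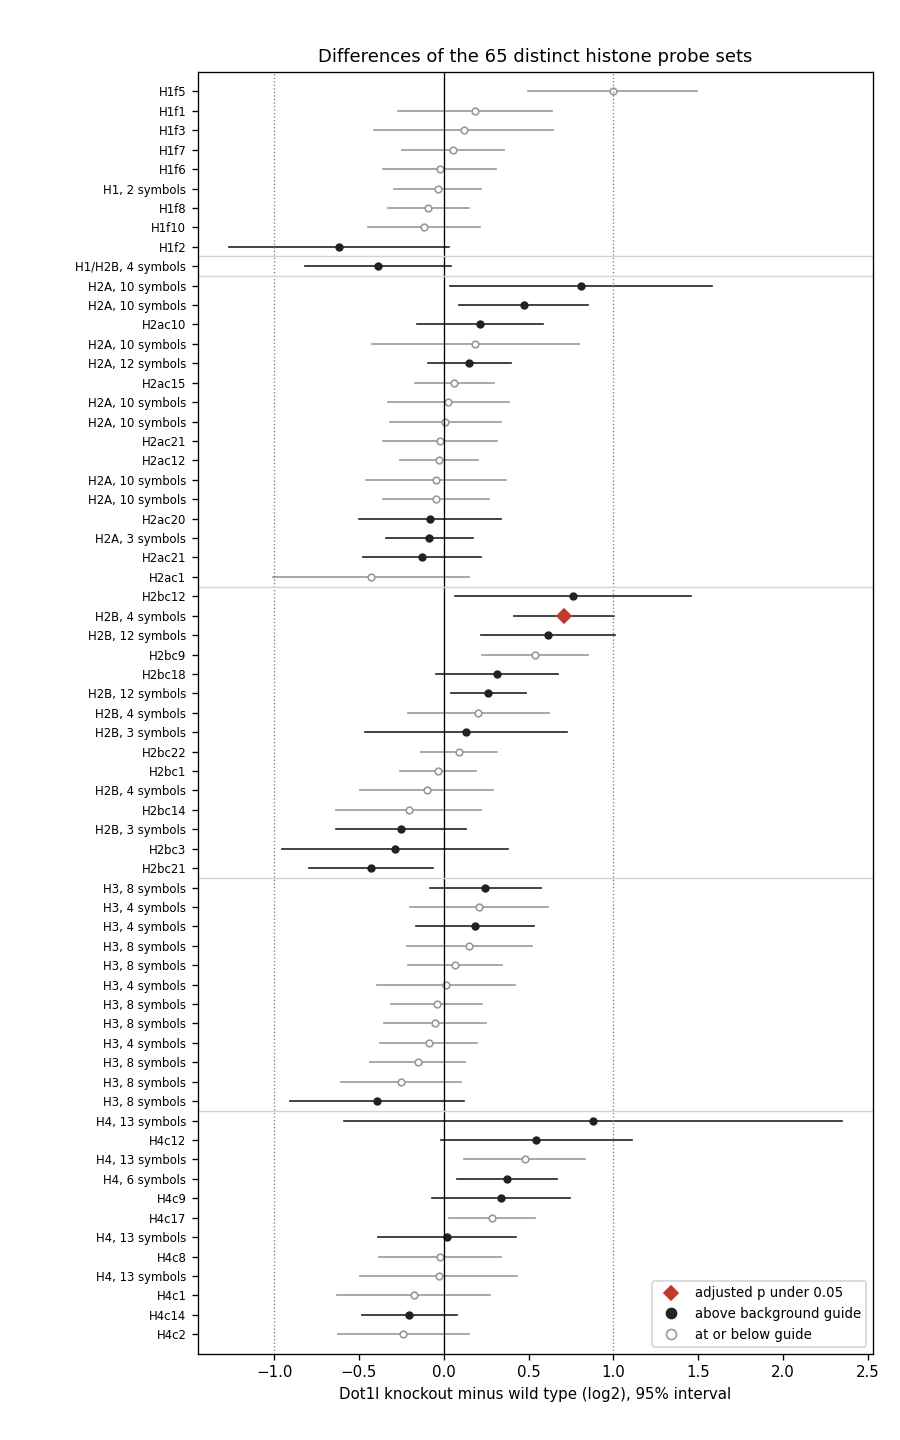
Knockout-labelled minus wild type difference (log2, horizontal axis) of the 65 distinct histone probe sets, grouped by class, with 95% intervals from limma. Filled points lie above the background guide, open points at or below it, the red diamond marks the 1 call at an adjusted p under 0.05, and dotted lines mark a 2-fold change. Most intervals span 0, and 56 of 65 stay within the dotted lines, 20 of the 27 above the guide and 36 of the 38 at or below it.

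Histone H4, which forms a tetramer with H3 at the centre of the nucleosome, gave 0 calls among 12 distinct probe sets. Over all probe sets 3.41% were called higher and 0.672% lower, so 0 among 12 does not set this class apart. All knockout-labelled arrays lay above all wild type arrays in 3 of the 12 (25%), 2 of them at or below the guide, beside 14.7% of the table. The opposite order was seen in 0, beside 8.95%. H4c12 read 8.18, 7.91 and 8.44 in knockout-labelled arrays, against 7.40, 8.12 and 7.38 in wild type arrays. Wild type replicate 2 lay within the knockout-labelled range while the other wild type arrays lay below it, and the difference was 0.55 (SE 0.24, 95% interval -0.02 to 1.11, limma adjusted p = 0.299). H4c9 read 5.87, 5.26 and 5.63 in knockout-labelled arrays, against 5.33, 5.31 and 5.11 in wild type arrays (0.34, SE 0.17, adjusted p = 0.371). A probe set shared by 6 H4 genes gave 4.32 ± 0.19 in knockout-labelled arrays, against 3.95 ± 0.07 in wild type arrays without overlap (0.37, SE 0.12, adjusted p = 0.185). H4c14 of the Hist2 cluster differed the other way, by -0.20 (SE 0.12, adjusted p = 0.438).

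The 4 probe sets shared by all 13 H4 symbols disagreed in spread. One of them read 4.93, 3.82 and 4.97 in knockout-labelled arrays, against 3.16, 5.08 and 2.84 in wild type arrays, a difference of 0.88 with an SE of 0.62 (adjusted p = 0.532). Its highest single value was wild type replicate 2. Another, close to the guide, read 4.22 ± 0.24 in knockout-labelled arrays, against 4.21 ± 0.23 in wild type arrays (0.02, adjusted p = 0.978), and a dim probe set over these genes read 3.13 ± 0.12 in knockout-labelled arrays, against 2.65 ± 0.25 in wild type arrays (0.48, SE 0.15, adjusted p = 0.163). The fourth was dim as well and differed by -0.03. H4c17 was dimmer still, at 2.29 ± 0.12 in knockout-labelled arrays, against 2.01 ± 0.07 in wild type arrays (0.28, SE 0.11, adjusted p = 0.235). H4c1, H4c2 and H4c8 were also below the guide, with differences of -0.18, -0.24 and -0.02.

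H4 promoters carry their own letters, shown here because they set this class apart from the H2A and H2B genes above. The string GGTCCG, part of the subtype element of H4 promoters, was found in 11 of 12 H4 windows, in 0 of 17 H2A and 1 of 15 H2B windows, and in 8.25% of all windows, while CCAAT was in 3 of 12 H4 windows. Stretches of 60 bases, from base 70 to base 11 before the annotated start, are given for H4c12 (chr13:21750564-21750623, minus strand) and H4c9 (chr13:22041373-22041432, minus strand), with GGTCCG and the TATA box string TATAAA in capitals, the second found only in the H4c12 stretch.
H4c12: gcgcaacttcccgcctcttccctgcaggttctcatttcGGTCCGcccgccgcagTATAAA
H4c9: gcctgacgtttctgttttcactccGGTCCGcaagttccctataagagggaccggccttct

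The H3 genes, which encode the substrate of DOT1L, gave 0 calls among 12 distinct probe sets, and in 0 of them did the groups separate. Over all probe sets 3.41% were called higher and 0.672% lower, and 14.7% and 8.95% separated, so few or no calls among 12 do not set the H3 genes apart. All of these probe sets are shared. Of those over 8 H3 genes, the brightest by mean read 6.04, 5.94 and 5.88 in knockout-labelled arrays, against 5.51, 5.96 and 5.66 in wild type arrays (0.25, SE 0.14, 95% interval -0.08 to 0.57, adjusted p = 0.426). Another over the same 8 genes read 4.42, 4.34 and 5.03 in knockout-labelled arrays, against 5.16, 5.10 and 4.73 in wild type arrays (-0.40, SE 0.22, adjusted p = 0.411). The 2 thus had opposite signs, and in both the groups overlapped. A dim probe set of the same genes read 2.05 ± 0.12 in knockout-labelled arrays, against 2.30 ± 0.24 in wild type arrays (-0.25, SE 0.15, adjusted p = 0.449). A probe set shared by H3c1, H3c8, H3c10 and H3c11 gave 4.44 ± 0.20 in knockout-labelled arrays, against 4.26 ± 0.17 in wild type arrays (0.19, adjusted p = 0.586). The interval of all 12 H3 probe sets stayed inside a 2-fold change. However, 9 of them lay at or below the guide, where differences are compressed, so only the 3 above it bear on H3 message levels.

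Linker histone H1 genes are read mostly by probe sets of their own. The 9 distinct H1 probe sets gave 0 calls, beside 3.41% called higher and 0.672% called lower over all probe sets. H1f5 had the largest difference of all members. It read 3.87, 3.22 and 3.60 in knockout-labelled arrays, against 2.27, 2.61 and 2.82 in wild type arrays, without overlap (0.996, SE 0.21, 95% interval 0.50 to 1.49, limma adjusted p = 0.0527). Its means lay below the guide in both groups, so the size is uncertain. Its adjusted p was 0.0259 with annotated probe sets only and 0.0455 both with trend and robust fitting and above the 25th percentile of level. It was 0.0726 to 0.172 with any 1 array left out, 0.139 with the replicate block, 0.209 with the unnamed median as covariate, and 0.0637 to 0.0677 after rescaling or with array weights. H1f2 differed in the other direction, at 7.16, 6.24 and 6.81 in knockout-labelled arrays, against 7.36, 7.71 and 7.01 in wild type arrays (-0.62, SE 0.27, 95% interval -1.27 to 0.03, adjusted p = 0.306). Knockout replicate 1 lay above wild type replicate 3, so the groups overlapped. The human counterpart of H1f2 is known to give polyadenylated messages as well. This trait is given here for H2bc21 and H1f2 alone, and its bearing on their values was not tested.

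A probe set shared by H1f4 and the H2B genes H2bc4, H2bc6 and H2bc8 read 4.54, 4.09 and 4.47 in knockout-labelled arrays, against 4.62, 5.06 and 4.58 in wild type arrays. Its groups did not overlap, with the knockout-labelled arrays lower (-0.39, SE 0.18, adjusted p = 0.332). The 2 probe sets shared by H2bc4, H2bc6 and H2bc8 alone differed by -0.25 and 0.13 (adjusted p = 0.483 and 0.844). H1f1 (0.18, adjusted p = 0.688) and H1f3 (0.12, adjusted p = 0.842) were below the guide. So were the germ cell genes H1f6, H1f7 and H1f8 and both probe sets that name H1f10, with differences of -0.12 to 0.05.

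The promoters of H1f5 and H1f2, the members with the largest difference in each direction, both hold the H1 box and a CCAAT box. Stretches of 110 bases from base 130 to base 21 before the annotated start are given for H1f5 (chr13:21780646-21780755, minus strand) and H1f2 (chr13:23738677-23738786, plus strand). Capitals mark the H1 box string AAACACA, the CCAAT box on either strand, and TATAAA, which only the H1f5 stretch holds.
H1f5: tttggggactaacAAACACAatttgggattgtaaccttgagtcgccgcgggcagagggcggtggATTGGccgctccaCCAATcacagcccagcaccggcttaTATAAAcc
H1f2: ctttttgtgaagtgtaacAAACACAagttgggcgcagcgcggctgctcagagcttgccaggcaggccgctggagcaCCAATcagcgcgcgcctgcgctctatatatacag

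The string AAACACA was in 5 of 9 H1 windows, beside 7.18% of all windows. CCAAT was in 7 of 9 and TATAAA in 4 of 9, beside 37.4% and 13.6% of all windows.

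By gene cluster, the above-guide probe sets of Hist1 alone had a difference above 0 in 13 of 17, with a median of 0.26, and those of Hist2 alone in 1 of 6, with a median of -0.11. Over all probe sets above the guide 58.1% were above 0, with a median of 0.06. The Hist2 probe set above 0 was that of H2bc18. Of the above-guide probe sets shared between clusters, 1 of 2 over Hist1 and Hist2 and 2 of 2 over Hist1, Hist2 and Hist4 were above 0. This contrast between clusters was seen in the data and was not tested, and probe sets of a cluster share sequence, so they are not independent.

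The arrays of a group were ordered alike across many histone probe sets. Among the 27 above the guide, knockout replicate 2 was the lowest knockout-labelled array in 20, beside 35.1% of all probe sets above the guide. Wild type replicate 2 was the highest wild type array in 21, beside 37.6% of all. Both held at once in 15 of 27 (55.6%), beside 18.7% of all. Both were also seen in 8 of 26 genes of the DNA replication and S phase list and in 4 of 20 of the mitosis list. The 2 arrays were picked from these same values, and the order was not tested. Many of the 27 probe sets share genes, so they are not independent. The median deviation of the 27 probe sets from their own 6-array mean was 0.20, -0.09 and 0.05 in knockout replicates 1, 2 and 3, against -0.15, 0.08 and -0.17 in wild type replicates 1, 2 and 3. Wild type replicate 2 thus lay above knockout replicates 2 and 3, which is the overlap that recurs in the single values above.

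**Figure D3:**
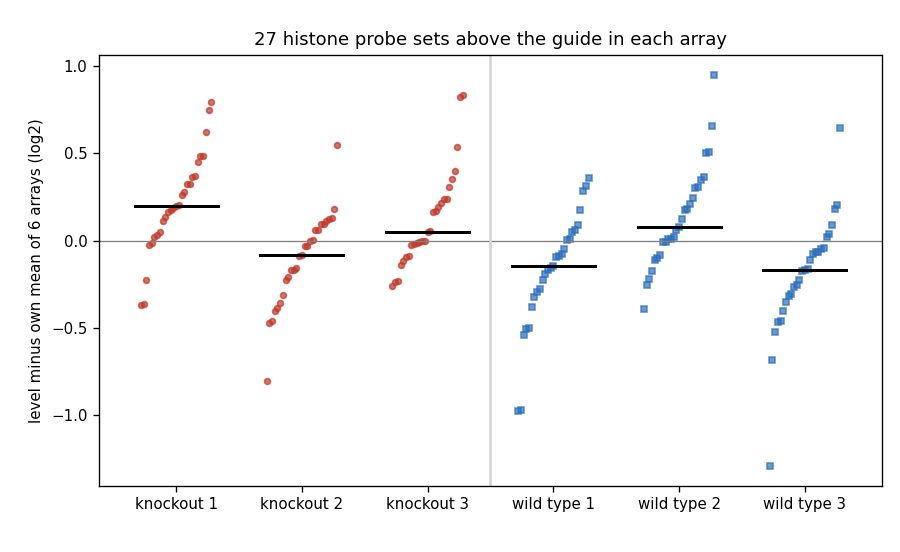
Deviation of each of the 27 above-guide histone probe sets from its own mean over 6 arrays (log2, vertical axis), sorted within each array, with knockout-labelled arrays (red circles) left of wild type arrays (blue squares) and black bars at the medians. Wild type replicate 2 has a median of 0.08, above the -0.09 of knockout replicate 2.

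Genes that act on histone messages and proteins were set beside the members, from lists chosen with earlier results of these data known. Over all probe sets 3.41% were called higher and 0.672% lower, so 0 calls in such short lists do not set them apart. Of 17 measured genes of histone gene transcription and message processing, 0 were called and the median difference was -0.01. Slbp, which encodes the protein that binds the histone stem-loop, read 7.57, 7.54 and 7.61 in knockout-labelled arrays, against 7.39, 7.39 and 7.31 in wild type arrays, without overlap (0.21, SE 0.09, adjusted p = 0.292). Lsm10, a subunit of the U7 particle that cuts histone messages, averaged 6.89 ± 0.23 in knockout-labelled arrays, against 6.39 ± 0.31 in wild type arrays (0.50, SE 0.19, adjusted p = 0.24). Its lowest knockout-labelled and highest wild type values were both in replicate 2, as in many histone probe sets. Mbd2, a reader of methylated DNA, differed by -0.29 (SE 0.10, adjusted p = 0.209).

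Of 18 histone chaperone and assembly genes 0 were called, with a median of 0.02. The H3 chaperone gene Daxx differed most, at 8.65 ± 0.28 in knockout-labelled arrays, against 7.92 ± 0.10 in wild type arrays (0.73, SE 0.16, adjusted p = 0.0575). Chaf1a, a subunit of chromatin assembly factor 1, differed by 0.46 (adjusted p = 0.18) and Nap1l1 by -0.28 (adjusted p = 0.223). Of 11 replication-independent histone variant genes 0 were called, with a median of -0.11, and these include H1f8 and H1f10, which the member rule also takes in. H2aj differed by 0.39 (SE 0.11, adjusted p = 0.121), Macroh2a1 by 0.27 (adjusted p = 0.21) and H2ax by 0.39 (adjusted p = 0.324). Of 7 genes of the DOT1L complex 0 were called. Mllt1, Mllt10 and Mllt3, whose products bind DOT1L, differed by 0.23, -0.14 and 0.08 (adjusted p = 0.29 to 0.746).

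Genes of the cell cycle lists gave 6 calls. In the DNA replication and S phase list 3 of 26 rose and 0 fell, with a median of 0.26, beside 3.41% called higher and a median of 0.004 over all probe sets. Rrm2, a ribonucleotide reductase subunit, rose to 5.71, 5.71 and 5.64 in knockout-labelled arrays, against 4.81, 5.07 and 5.02 in wild type arrays (0.72, SE 0.11, limma adjusted p = 0.0194). The polymerase genes Pole (0.63, adjusted p = 0.0377) and Pola1 (0.52, adjusted p = 0.0371) rose too. In the mitosis list 3 of 20 rose and 0 fell, with a median of 0.36, and these were Ccna2 (0.88, adjusted p = 0.0357), Tpx2 (0.63, adjusted p = 0.0265) and Top2a (0.56, adjusted p = 0.0408). After another quantile normalization 0 genes of these lists were called, and without knockout replicate 1, 2 or 3 the count was 1, 0 and 0. Without wild type replicate 1, 2 or 3 it was 3, 2 and 0. Of the measured genes, 24 of 26 and 19 of 20 lay above the guide, unlike most histone probe sets. Above the guide the median was 0.19 for the 27 histone probe sets and 0.06 over all probe sets. The difference between the lists and the histone probe sets was not tested.

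**Figure D4:**
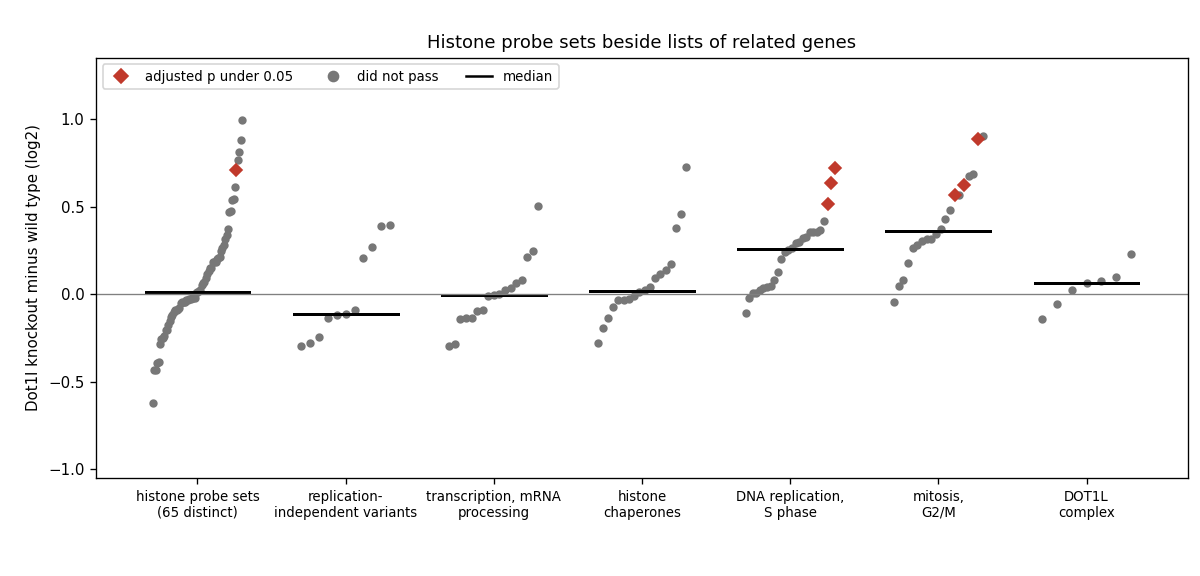
Knockout-labelled minus wild type difference (log2, vertical axis) of the 65 distinct histone probe sets and of the genes of 6 related lists, sorted within each list, with black bars at the medians and red diamonds at an adjusted p under 0.05. The median is 0.01 for the histone probe sets, 0.26 for DNA replication and S phase and 0.36 for mitosis. For the 27 histone probe sets above the guide alone it is 0.19, and most genes of these 2 lists lie above the guide.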

How the data were processed

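RNA of 6 CD8+ T cell samples was read on Affymetrix whole-transcript arrays. The authors deposited log2 values, and the submitters' processing notes name RMA and R 3.1.1. RMA settings and the annotation version are not stated there. RMA compresses differences of dim probe sets. Arrays have no count depth, and their number limits the precision. In the platform annotation 23521 probe sets named 1 gene symbol, 1814 several and 16010 none.

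The lmFit and eBayes steps of limma 3.58.1 (R 4.3.3) were run without covariates on all 41345 probe sets, with Benjamini-Hochberg adjustment over all of them and a threshold of 0.05. The fit was tested on simulated data. Members, lists and tests were chosen with earlier results of these data known. The naming rule gave full statistics to members that passed and, per class, to the 3 with the smallest p and the 2 with the highest mean, and to 3 genes of each related list. Other members, H2bc12, H2bc18 and H2bc21 among them, are named to account for the family, after their values were seen. In the lists a gene with several probe sets was read from that with the highest mean, and 145 of 166 listed genes were measured. Promoter sequences are from RefSeq (GRCm38.p6). The alternatives were a replicate block, leaving out each array, 2 rescalings, other moderation, array weights, other sets of probe sets tested, a covariate and 2 thresholds. The replicate numbers did not pair the samples.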

Additional observations from a re-analysis of the deposited data

How the results depend on the processing

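Counts of calls were low and moved with most settings. For the histone probe sets called higher, 1 as reported, the count was 0 with the replicate block, after median centring, with the unnamed median as covariate, at an adjusted p under 0.01 and among members with 1 symbol, 2 with trend and robust fitting, above the 25th percentile of level and with annotated probe sets only, and 3 at an adjusted p under 0.10. Leaving out 1 array gave 0 to 2. The count lower was 0 in all of these. The 6 calls of the related lists became 0 with the replicate block, after another quantile normalization, with the covariate and at 0.01, 10 with annotated probe sets only and 12 at 0.10, and 0 to 3 with 1 array left out. In the whole table the covariate left 2 calls and the replicate block 397, against 1686, and leaving out 1 array gave 377 to 1531. The cause of these moves was not tested. The median difference of the 65 distinct probe sets was 0.17 over those above the guide in a group mean, against 0.01. The called H2B probe set kept its direction in all 15 other fits, with differences of 0.64 to 1.02 and adjusted p of 0.0141 to 0.16, and it did not pass in 8. Of 289 values of 20 named members 5 changed sign, and the called member was not among them: H1f2 (0.23), H2ac1 (0.13) and the probe set of H2ac18, H2ac19 and H2ac20 (0.16) with the covariate, and H1f1 (-0.0015) and H1f10 (0.0011) without knockout replicate 3. With 1 array left out H1f1 ranged from -0.0015 to 0.36 and H1f10 from -0.18 to 0.0011. Same-numbered arrays did not deviate together (correlations -0.15 to -0.06, 0 of 6 arrays correlating best with their own number), so the block is given only as an alternative fit. The replicate block gave the called H2B probe set 0.71 with an adjusted p of 0.123.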
